A study of Mesocricetus auratus with 8 samples.

Results

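Retinoic acid signaling was examined in primary satellite cells (SCs) of the Syrian hamster through 10 genes, chosen by name from the 17590 genes with values in the series. They are the dehydrogenase gene Rdh10, the retinaldehyde dehydrogenase genes LOC101822890, Aldh1a2 and Aldh1a3, the retinoic acid receptor genes Rara, Rarb and Rarg, and the retinoid X receptor genes Rxra, Rxrb and Rxrg. LOC101822890 (NCBI Gene 101822890) is the gene that the study plots as Aldh1a1. LOC101822890 and Rxrg are among the genes that the study lists as changed in these same libraries, so their difference between cold and control chose them, and it is given here as a description with no test. The other 8 genes complete the pathway step or the receptor family.

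SCs of wild-type animals were isolated from hindlimb muscle, enriched by preplating and kept in growth medium at 37°C for 48 h and then in growth medium with 100 mM HEPES at 37°C for 24 h. Control libraries (n = 4) were made from cells at 37°C before the cold, and cold libraries (n = 4) from cells kept at 4°C for a further 24 h without a change of medium. The titles place all 4 controls on day 3 of culture, whereas their treatment labels give 3, 4, 5 and 6 days at 37°C for replicates 1, 2, 3 and 4. Cold and control libraries differ in time as well as in temperature, which cannot be told apart here, and the sources used do not say how many animals a replicate stands for, so p-values measure the spread between these libraries.

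Retinoic acid is made from vitamin A in 2 oxidation steps. RDH10 turns retinol into retinaldehyde, and the ALDH1A enzymes turn retinaldehyde into retinoic acid. The acid binds nuclear receptors of the RAR family, which sit on DNA as heterodimers with RXR proteins and switch target genes on in its presence, and the CYP26 enzymes break it down. In muscle, retinoic acid is known to influence the choice of myoblasts between proliferation and differentiation, and ALDH activity is used to sort myogenic cells.

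The depth was 16530747 to 18533801 expected counts per library, and all the counts of the 10 genes were whole numbers. Myogenic markers were present in every library, with means in control libraries of 12.7 TPM for Pax7, which marks SCs, 614 TPM for Myod1, a myogenic determination factor, 738 TPM for Myog, a differentiation factor, and 830 TPM for Des, which encodes desmin. Fibroblast markers were present too, with a summed level over 9 genes of 1256 to 1801 TPM in control and 1237 to 1748 TPM in cold libraries. By staining for Pax7 and MyoD, the study reports high purity of its isolated hamster SCs, and summed TPM does not give a share of cells. The first principal component of all libraries carried 54.5% of the variance. It set replicates 3 and 4 apart from replicates 1 and 2 at both temperatures. Libraries of the same number deviated together, so each edgeR result is given from a fit that ignores the replicate number and from one that blocks on it. TPM is scaled by transcript length, so levels below are compared between genes on that scale.

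After cold, LOC101822890 and Rxrg were the members at clearly lower levels, by 3.19-fold and 6.82-fold in mean TPM. The mean levels of the other members with at least 1 TPM differed by less between the groups, by at most 0.13 on the edgeR log2 scale in either direction. In control libraries, the order of mean TPM was Rara, Rdh10, Rxrb, Rarg, LOC101822890, Rxra, Rarb, Aldh1a3, Rxrg and Aldh1a2. In cold libraries the order was the same except for LOC101822890, which stood between Aldh1a3 and Rxrg, at rank 8 in place of rank 5. The ranges of neighbors in this order overlapped in control libraries for Rara and Rdh10, for Rarg and LOC101822890, and for each neighboring pair from Rxra down to Aldh1a2. In cold libraries only 3 neighboring pairs overlapped, namely Rarb with Aldh1a3, Aldh1a3 with LOC101822890, and Rxrg with Aldh1a2.

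**Figure D1:**
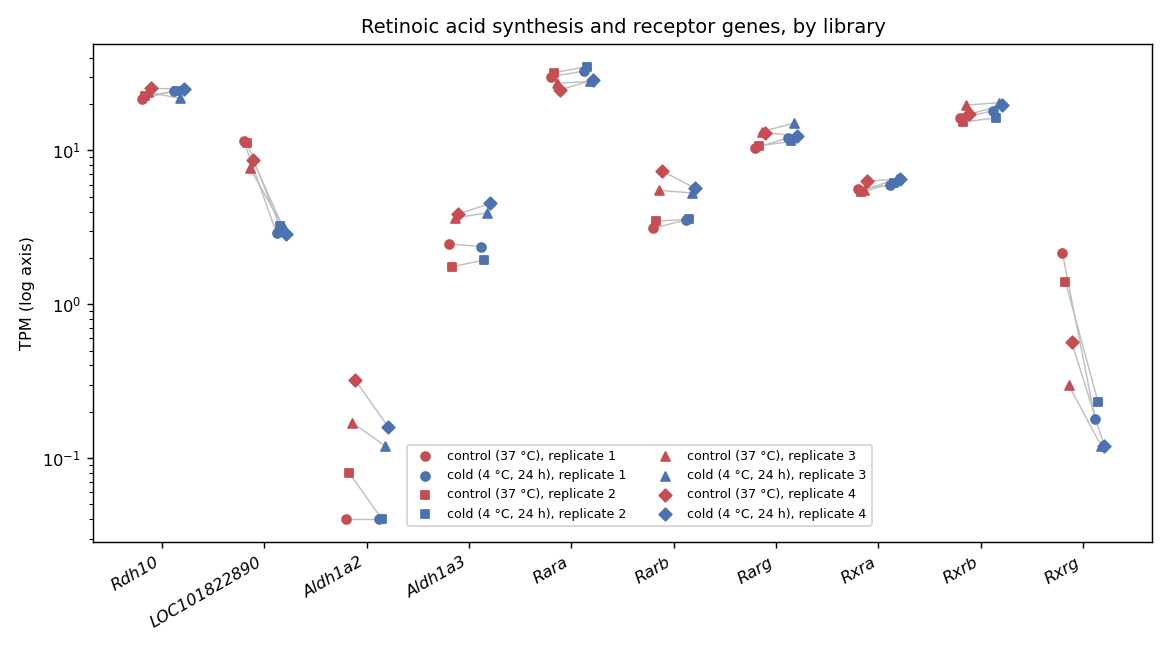
TPM on a log axis of the 10 genes in each control (red) and cold (blue) library, with marker shapes for replicates 1 to 4 and gray lines joining libraries of the same number. LOC101822890 and Rxrg are lower in cold in all 4 pairs, and most other members sit at similar levels in both groups.

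Retinol oxidation is the first and rate-limiting step of the pathway. Rdh10 (NCBI Gene 101835129) was at 21.5, 22.5, 23.9 and 25.4 TPM in control replicates 1 to 4 and at 24.5, 24.4, 21.8 and 25.0 TPM in cold replicates 1 to 4. The groups overlapped, and cold was higher in 2 of 4 pairs and lower in the other 2. Its log2 fold change, cold over control, was 0.02, with a 95% interval of −0.12 to 0.16 (edgeR adjusted p = 0.999). With the replicate block the interval was −0.09 to 0.13, which corresponds to 0.938 to 1.09 times the control level.

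LOC101822890, the most abundant ALDH1A gene in control libraries, was at 11.5, 11.2, 7.64 and 8.63 TPM in control replicates 1 to 4. In cold replicates 1 to 4 it was at 2.89, 3.22, 3.22 and 2.88 TPM. Every cold library was lower than every control library, as in 2.41% of all genes tested, and the cold values lay closer together (SD 0.193 TPM, mean 3.05) than the control values (SD 1.89 TPM, mean 9.73). Its reads fell from 856 counts over the control libraries to 270 over the cold libraries. The edgeR log2 fold change was −1.70 (standard error 0.17), and −1.69 with the replicate block. Replicates 1 and 2 had more of it than replicates 3 and 4 at 37°C and about the same after cold, so the log2 fold change was −1.95 in replicates 1 and 2 alone and −1.40 in replicates 3 and 4 alone, a difference that was not tested.

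Aldh1a3 (NCBI Gene 101827627), a second enzyme of this step, was at 2.47, 1.75, 3.64 and 3.85 TPM in control replicates 1 to 4. In cold replicates 1 to 4 it was at 2.37, 1.94, 3.93 and 4.53 TPM. The groups overlapped, with replicates 3 and 4 above replicates 1 and 2 in both. Its log2 fold change was 0.12 (95% interval −0.57 to 0.80, edgeR adjusted p = 0.999), and with the replicate block the interval was −0.12 to 0.33. Without cold replicate 4 or without control replicate 2 its sign turned negative. Aldh1a2 (NCBI Gene 101830606), the main enzyme of the step in the embryo, was near the limit of detection, at 0.04 to 0.32 TPM in control and 0.04 to 0.16 TPM in cold libraries, from 15 and 9 counts in all. It did not pass the filter on low counts, and a difference in it was not detectable at this depth (exact two-sided permutation test on TPM, p = 0.457). The counting interval of the ratio of control to cold runs from 0.697 to 4.41 (95%, exact). That interval pools the counts of each group and covers the sampling of reads only, not the spread between libraries.

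Summed over the 3 genes, ALDH1A transcripts were at 12.8 ± 1.05 TPM at 37°C and 6.34 ± 1.26 TPM after cold (SD, n = 4 each). LOC101822890 made up 66.7% to 85.9% of the sum in control libraries and 38.0% to 61.9% in cold libraries. The share of Aldh1a3 was 13.5% to 31.8% in control and 37.3% to 59.8% in cold libraries. In cold replicates 3 and 4 Aldh1a3 was thus the more abundant transcript, and in cold replicates 1 and 2 LOC101822890 was. These sums rest on LOC101822890, which was chosen by this difference, and carry no test. In bulk RNA, fewer cells that express a gene and less RNA per cell cannot be told apart.

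**Figure D2:**
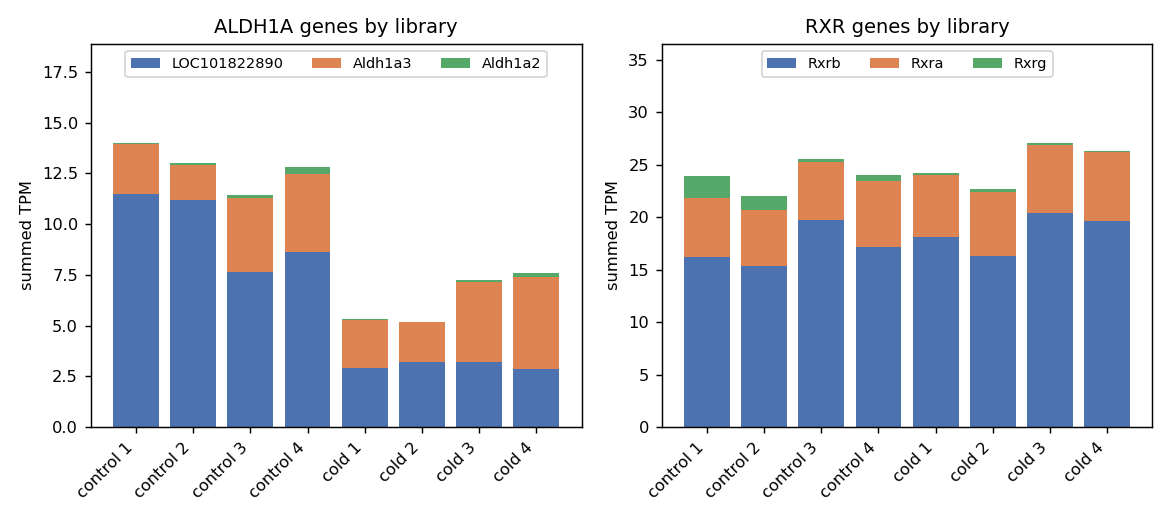
Summed TPM of the ALDH1A genes (left) and the RXR genes (right) in each library, stacked by gene, with control and cold replicates 1 to 4 on the horizontal axis. The ALDH1A sum runs from 11.45 to 14.0 TPM in control and from 5.20 to 7.57 TPM in cold libraries, while the RXR sum overlaps between the groups.

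The retinoid X receptors pair with RARs and with other nuclear receptors, and Rxrg is the member enriched in skeletal muscle. Rxrg (NCBI Gene 101839118) was at 2.16, 1.40, 0.30 and 0.57 TPM in control replicates 1 to 4 and at 0.18, 0.23, 0.12 and 0.12 TPM in cold replicates 1 to 4. The groups did not overlap, as in 2.41% of all genes tested with cold lower, and cold was lower in 4 of 4 pairs, as in 10.5%. The level at 37°C was uneven, with replicates 1 and 2 above replicates 3 and 4, as for LOC101822890. These values come from 48, 31, 7 and 15 counts in control and 5, 5, 3 and 3 counts in cold libraries, and a floor of 3 counts is worth 0.125 TPM for this gene. Over the summed counts, 101 against 16, control was 6.44 times cold relative to library totals. Rxrg did not pass the filter on low counts. In the edgeR fit without that filter, its log2 fold change was −2.67, or −2.66 with the replicate block. It was −1.92 and −0.77 by limma with pseudocounts of 0.1 and 1, which pull low levels together.

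Rxrb and Rxra are the receptors expressed in most tissues. Rxrb (NCBI Gene 101837116) was at 16.2, 15.3, 19.7 and 17.2 TPM in control replicates 1 to 4, and at 18.1, 16.3, 20.4 and 19.7 TPM in cold replicates 1 to 4. Rxra (NCBI Gene 101830118) was at 5.60, 5.34, 5.53 and 6.30 TPM in control replicates 1 to 4, and at 5.95, 6.14, 6.52 and 6.54 TPM in cold replicates 1 to 4. For both, cold was slightly higher in 4 of 4 pairs, and the groups overlapped. The log2 fold change of Rxrb was 0.11 (95% interval −0.09 to 0.30, edgeR adjusted p = 0.996), and that of Rxra was 0.13 (95% interval −0.03 to 0.28, edgeR adjusted p = 0.868). The fit with the replicate block gave edgeR adjusted p-values of 0.384 and 0.349, and the upper bounds of the intervals were 1.18 and 1.20 times the control level. By TPM, the exact two-sided permutation test gave p = 0.0857 for Rxra and p = 0.286 for Rxrb, where 4 libraries against 4 cannot go below 0.0286. Rxra reached p = 0.0286 in that exact test without control replicate 4, its highest control library.

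Rxrg made up 1.17% to 9.02% of RXR transcripts in control libraries and 0.444% to 1.02% in cold libraries. Rxrb made up 67.6% to 77.2% in control and 71.9% to 75.4% in cold libraries, and Rxra 21.6% to 26.2% and 24.1% to 27.1%. The RXR sum was 23.9 ± 1.43 TPM at 37°C and 25.1 ± 2.01 TPM after cold (SD, n = 4 each), and the 2 ranges overlapped.

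Among the receptors for retinoic acid itself, Rara was the most abundant. Rara (NCBI Gene 101825414) was at 30.2, 32, 27.3 and 24.7 TPM in control replicates 1 to 4 and at 32.7, 35.1, 28.1 and 28.7 TPM in cold replicates 1 to 4. It was higher in cold in 4 of 4 pairs, with replicates 1 and 2 above replicates 3 and 4 in both groups. Its log2 fold change was 0.10 (95% interval −0.16 to 0.37, edgeR adjusted p = 0.999). With the replicate block the interval was 0.0035 to 0.21, with an unadjusted p of 0.0434 and an adjusted p of 0.255 over all genes tested by edgeR.

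Rarg (NCBI Gene 101840340) was at 10.4, 10.7, 13.2 and 13.0 TPM in control replicates 1 to 4 and at 12.1, 11.4, 15.1 and 12.5 TPM in cold replicates 1 to 4. It was higher in cold in 3 of 4 pairs, and its log2 fold change was 0.09 (95% interval −0.13 to 0.31, edgeR adjusted p = 0.999). Rarb (NCBI Gene 101838607), itself a classical target that retinoic acid induces, was at 3.11, 3.47, 5.50 and 7.35 TPM in control replicates 1 to 4 and at 3.54, 3.57, 5.29 and 5.68 TPM in cold replicates 1 to 4. Cold was higher in 2 pairs and lower in the other 2, with the largest drop in replicate 4, where cold was 0.773 times control. The log2 fold change of Rarb was −0.07 (95% interval −0.71 to 0.57, edgeR adjusted p = 0.999), and with the replicate block the interval was −0.27 to 0.18. Its sign turned positive without control replicate 4 or without cold replicate 1 or 2.

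The summed RAR level was 45.2 ± 1.14 TPM at 37°C and 48.4 ± 1.32 TPM after cold (SD, n = 4 each), with cold higher in 4 of 4 pairs. The groups did not overlap, at 43.7 to 46.2 TPM and 46.8 to 50.1 TPM. Of all single genes tested, 2.27% had no overlap with cold higher, and 12.8% were higher in cold in 4 of 4 pairs. Rara, Rarb and Rarg each overlapped between the groups. As a sum over genes chosen with results known, the RAR level is given without a test. On average, Rara made up 63.1% of it in control and 64.2% in cold libraries, Rarg 26.2% and 26.4%, and Rarb 10.7% and 9.38%.

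Of the 10 members, 8 passed the filter on low counts. Under the study's call rule, an absolute log2 fold change of 1 or more with adjusted p under 0.05, LOC101822890 was the 1 member lower with edgeR, where 0.0400% of the 12506 genes tested were lower and 0.00% higher. With the replicate block it was again the 1 member lower, against 0.808% of all genes tested lower and 0.0400% higher. Without the block, the call of LOC101822890 was lost in 6 of 8 fits that left out 1 library. Since LOC101822890 was chosen by this contrast, nothing is read from these counts. Of the other 7 tested members, 0 had an adjusted p under 0.05 with edgeR with or without the replicate block, where 0.0720% of all genes tested were lower and 0.00% higher without the block, and 4.07% and 1.26% with it. At an unadjusted p under 0.05 the counts were 0 of 7 without and 1 of 7 with the block (Rara), where 4.13% of all genes tested were lower and 2.57% higher without the block, and 9.76% and 8.48% with it. Over 8 members, now with Aldh1a2, DESeq2 gave 0 at an adjusted p under 0.05, where 0.924% of its genes were lower and 0.0209% higher, and 0 at an unadjusted p under 0.05, where 3.14% and 1.45% were. For limma with a pseudocount of 0.1 both counts were 0 of 8, beside shares of 0.0290% and 0.00% adjusted and 3.55% and 2.86% unadjusted. Rara, Rxra and Rxrb were higher in cold in 4 of 4 pairs by TPM, as were 12.8% of all genes tested. Rxra, Rxrb, Rara and Rarg kept a positive log2 fold change in each of the 19 alternative fits, whereas the signs of Rdh10, Rarb and Aldh1a3 depended on the libraries included.

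**Figure D3:**
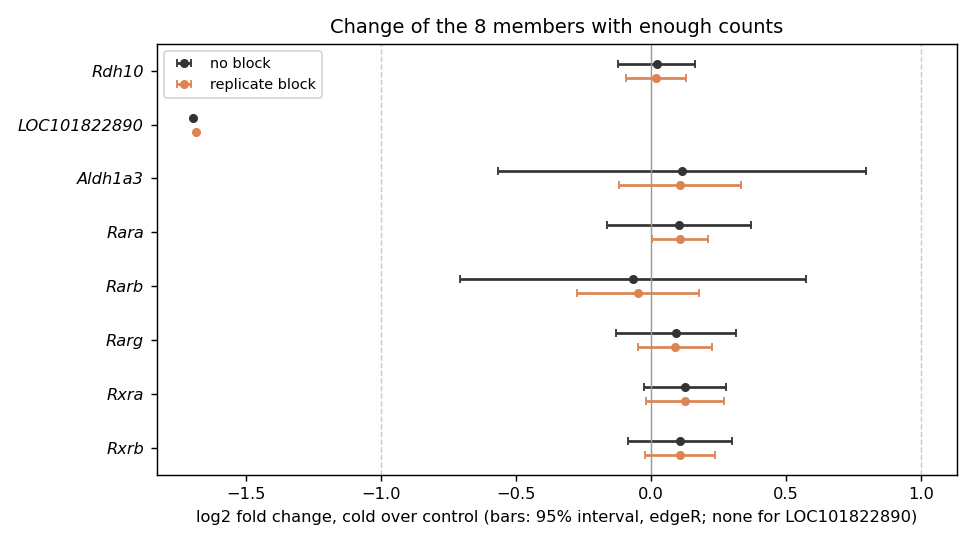
Log2 fold change of cold over control for the 8 members with enough counts, from edgeR without (black) and with (orange) the replicate block, with 95% intervals except for LOC101822890, and dashed lines at a log2 fold change of 1 in either direction. LOC101822890 lies at −1.70, and the points of the other 7 members lie between −0.07 and 0.13.

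Several members were split by replicate number. Over all 8 libraries, Aldh1a2, Aldh1a3, Rarb and Rarg were higher in each library of replicates 3 and 4 than in any library of replicates 1 and 2, and Rara was the reverse. Such a gap was found in 5 of the 10 members and in 32.6% of all genes tested. The 2 shares rest on unlike sets, since Aldh1a2 and Rxrg are members but did not pass the filter on low counts. The gap of Aldh1a2 comes from 1 to 8 counts per library. Rarb was at 3.11 to 3.57 TPM in replicates 1 and 2 and at 5.29 to 7.35 TPM in replicates 3 and 4, and Aldh1a3 at 1.75 to 2.47 TPM and 3.64 to 4.53 TPM. Markers of cell types were split as well, but not uniformly. Of the 9 fibroblast markers with values, Pdgfra, Col3a1, Dcn, Lum and Thy1 were higher in each library of replicates 3 and 4 and the other 4 overlapped. Their sum was 1237 to 1330 TPM in replicates 1 and 2 and 1509 to 1801 TPM in replicates 3 and 4, with Thy1 the largest part at 480.1 to 662 TPM. Of the 7 muscle lineage markers, Myog (564 to 1016 TPM and 292 to 480 TPM) and Itga7 were higher in replicates 1 and 2, Myf5 (99.9 to 121 TPM and 179.5 to 205 TPM) was higher in replicates 3 and 4, and 4 overlapped. The sum of 5 blood and macrophage markers, at 26.0 to 30.7 TPM and 40.2 to 55.7 TPM, was mostly Cd68, at 23.3 to 52.0 TPM over all libraries. Csf1r, at 2.31 to 3.09 TPM and 3.61 to 4.55 TPM, split the same way, and Ptprc, Adgre1 and Itgam were at 0 to 0.07 TPM. Of 6 endothelial markers Cdh5 and Tek, and of 4 smooth muscle and pericyte markers Myh11 and Abcc9, were higher in each library of replicates 3 and 4. The other markers of these 2 lists and the 4 adipocyte markers overlapped. The part of these cell types in the differences was not tested. Between cold and control, 0 of the 9 tested fibroblast markers passed an adjusted p of 0.05 with edgeR with or without the block, while of 7 muscle lineage markers 0 passed without the block and 4 were lower with it, where 4.07% of all genes tested were lower. Among the 4 was Myog (log2 fold change −0.71 with the block, −0.74 and edgeR adjusted p = 0.824 without it).

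The genes closest to LOC101822890 in their pattern across the 8 libraries, a likeness that includes the drop by which it was chosen, were found by a distance. Among 11471 other genes whose mean TPM was 1 or more, the 5 of smallest root mean square difference in log2(TPM + 0.1), each centered on its own mean, were Lmod3 (0.20), Myom3 (0.21), Acta1 (0.24), Mturn (0.27) and Gprc5c (0.27). Lmod3 encodes leiomodin 3, which nucleates thin filaments, Myom3 the M-band protein myomesin 3, and Acta1 skeletal alpha-actin. Lmod3 had mean levels of 22.0 TPM at 37°C and 7.72 TPM after cold, Acta1 of 644 and 176 TPM, and Gprc5c of 8.52 and 3.22 TPM. In each of the 5 genes, every cold library was below every control library, as in 2.41% of all genes tested. The 5 were picked for likeness to a gene without overlap, so nothing is read from this. Of the 7 other members above that limit, Rdh10 was the nearest and ranked 6027 with a difference of 0.87. Rxrg and Aldh1a2 lay below the limit and were not ranked.

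The genes around the members were read from 8 lists of the retinoid pathway, with 116 genes in all, of which 94 had values and 74 passed the filter on low counts. Of the 74, 38 were higher and 36 lower in cold, and their median log2 fold change was 0.0034, beside 52.9% higher and a median of 0.0071 over all genes tested. Between −0.2 and 0.2 on the log2 scale lay 67 of the 74, a share that was not computed for all genes tested. With edgeR, 0 of them passed an adjusted p of 0.05 and 4 an unadjusted p of 0.05. DESeq2 gave 0 at an adjusted p under 0.05 among 83 pathway genes, where 0.924% of its genes were lower and 0.0209% higher. At an unadjusted p under 0.05 it gave 3 among 90, of which 1 was lower and 2 higher, where 3.14% and 1.45% of its genes were. The 4 from edgeR were all higher, as were 2.57% of all genes tested at that threshold. With the replicate block 1 passed, Rarres2, which was lower, as were 4.07% of all genes tested. With the block, 2 were lower and 9 higher at an unadjusted p under 0.05, where 9.76% and 8.48% of all genes tested were.

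Retinoid uptake and binding genes included the abundant intracellular carriers. Fabp5, which can deliver retinoic acid to PPARD, was at 601 ± 54.3 TPM at 37°C and 646 ± 45.9 TPM after cold (SD, n = 4 each; log2 fold change 0.10, edgeR adjusted p = 0.999). Crabp2, which carries retinoic acid to RARs, was at 213 ± 39.6 TPM and 216 ± 31.8 TPM (SD, n = 4 each; log2 fold change 0.0034, edgeR adjusted p = 0.999). Crabp1, singled out after its values were seen, was at 71.7, 68.5, 97.3 and 142 TPM in control and 61.8, 52.6, 97.9 and 135 TPM in cold replicates 1 to 4, again with replicates 3 and 4 above replicates 1 and 2. Of the 6 genes of this list that were tested, 4 were higher, 2 lower and 0 past an adjusted p of 0.05. Stra6, the membrane receptor for retinol-binding protein, named after its values were seen, was at a mean of 0.0575 TPM at 37°C and 0.0225 TPM after cold and was not tested.

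In the list for interconversion of retinol and retinaldehyde, 4 of 9 tested genes were higher and 5 lower, with 0 past the threshold. Rdh14 was at 13.7 ± 0.802 TPM at 37°C and 14.3 ± 0.774 TPM after cold, and the retinaldehyde reductase gene Akr1b10 at 30.4 ± 14.5 TPM and 30.8 ± 15.2 TPM (SD, n = 4 each). Akr1b10 was at 17.7 to 18.1 TPM in replicates 1 and 2 and at 40.2 to 47.1 TPM in replicates 3 and 4. Of 3 tested genes of retinyl ester storage 0 passed the threshold. Their edgeR log2 fold changes were between −0.09 (Dgat1) and −0.01 (Pnpla2), and by TPM Pnpla2 was higher in 3 of 4 pairs. Lrat, the main retinol esterifying enzyme, also named after its values were seen, was at means of 0.07 TPM and 0.05 TPM and was not tested. Of the 5 listed genes of retinoic acid breakdown, which include the 3 CYP26 genes, 0 had values under the listed symbols and 0 were tested.

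Coregulators that RARs and RXRs recruit were broadly present. Of 20 tested, 14 were higher and 6 lower, with a median log2 fold change of 0.05 and 0 past an adjusted p of 0.05. The arginine methyltransferase genes Prmt1 and Carm1, whose products act as coactivators, were the most abundant. Prmt1 was at 392 ± 15.1 TPM at 37°C and 377 ± 8.83 TPM after cold, and lower in 4 of 4 pairs. Carm1 was at 114 ± 3.01 TPM and 122 ± 0.495 TPM, higher in 4 of 4 pairs, and without overlap between the groups (SD, n = 4 each), as for 2.27% of all genes tested. Their adjusted p-values with edgeR were 0.862 and 0.732, and 0.266 and 0.186 with the block. Of 13 tested RXR partner receptors, 7 were higher and 6 lower with 0 past the threshold. Ppard was at 32.6 ± 2.20 TPM and 33.4 ± 1.79 TPM, and the liver X receptor gene Nr1h2 at 29.4 ± 1.48 TPM and 29.6 ± 1.66 TPM (SD, n = 4 each).

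The list of retinoic acid target genes, which holds induced genes and some, such as Tbx1, that retinoic acid can repress, gave 7 higher and 7 lower among 14 tested, with a median log2 fold change of −0.01. Rarres2, which encodes the secreted protein chemerin, was at 112, 108, 56.6 and 69.2 TPM in control replicates 1 to 4. In cold replicates 1 to 4 it was at 80.7, 83.5, 51.9 and 55.8 TPM. It was lower in 4 of 4 pairs while the groups overlapped, because replicates 1 and 2 were above replicates 3 and 4 at both temperatures. Its log2 fold change was −0.36 (edgeR adjusted p = 0.972), and with the replicate block −0.35 (95% interval −0.48 to −0.21, edgeR adjusted p = 0.00224). Dhrs3, a retinaldehyde reductase that retinoic acid induces, was named after its values were seen. It was at 1.33, 0.89, 1.10 and 0.86 TPM in control and 0.38, 0.65, 1.07 and 0.65 TPM in cold replicates 1 to 4, with a log2 fold change of −0.58 (edgeR adjusted p = 0.881, or 0.288 with the block).

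The list of other aldehyde dehydrogenases gave 4 higher and 9 lower among 13 tested, with a median log2 fold change of −0.0088 and 0 past an adjusted p of 0.05. Aldh2, the mitochondrial enzyme of acetaldehyde oxidation, was at 194 ± 16.2 TPM at 37°C and 200 ± 17.4 TPM after cold, and Aldh9a1 at 86.7 ± 14.5 TPM and 86.9 ± 12.1 TPM (SD, n = 4 each). Their log2 fold changes were 0.02 and −0.0088, and their edgeR adjusted p-values were 0.999 each.

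**Figure D4:**
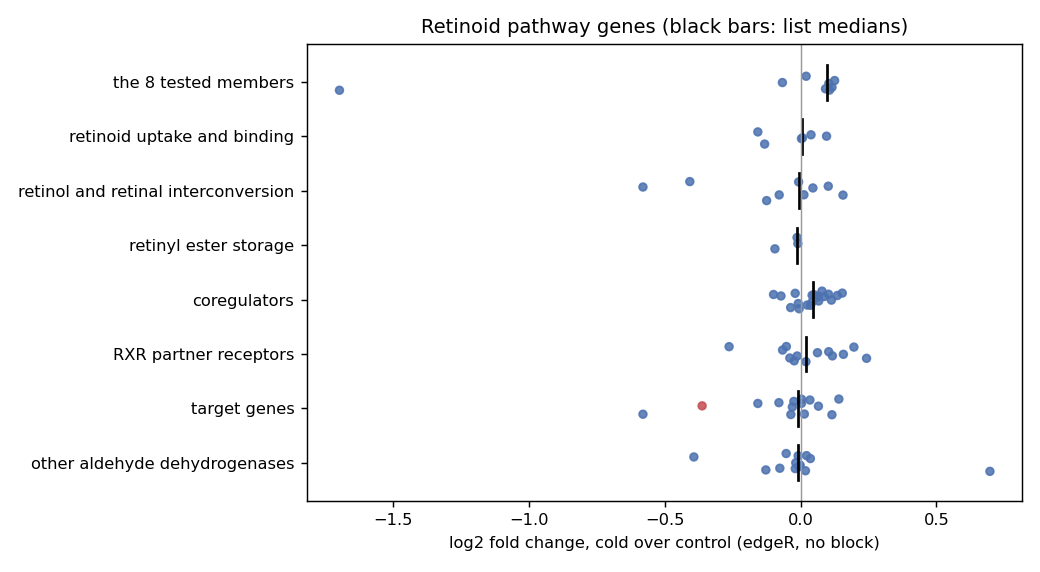
Log2 fold change of cold over control (edgeR, no block) for each tested gene of 7 retinoid pathway lists, below the 8 tested members, with black bars at the list medians and in red the 1 pathway gene with an adjusted p under 0.05 in the fit with the replicate block, Rarres2. The point at −1.70 among the members is LOC101822890, and most pathway genes lie near 0.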

How the data were processed

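RNA-seq libraries of hamster SCs (4 control, 4 cold) came in 1 table. The expected counts were deposited without normalization. The authors also deposited TPM values and normalized counts, a signal obtained with 1 scaling factor per library. Reads were paired-end. The labels' processing notes name HISAT and HISAT2, and the counting program and genome build are not given in the sources used here, so no coordinates are printed. The 17590 gene identifiers were matched to RefSeq for a check of names. The normalized counts were not used in any test.

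After rounding of the expected counts, genes were tested in R 4.3.3 by edgeR 4.0.16 (filterByExpr, TMM, quasi-likelihood F test, Benjamini-Hochberg adjustment over 12506 genes), and intervals are 95% t intervals of that fit. Single genes were compared by TPM in an exact permutation test over 70 arrangements. This test ignores the replicate number, so differences between replicates add to the spread it measures. No p-value is given for LOC101822890 or Rxrg, and their calls in fits over all genes are counted as a description only. Alternatives were the replicate block, DESeq2 1.42.0, RLE factors, library totals, other filters, limma 3.58.1 on log2-transformed TPM (pseudocounts 0.1 and 1), and fits without each library or to replicates 1 and 2 or 3 and 4 alone. The block without the filter on low counts, and the pathway counts without each library, were added after seeing the data. Whether numbers pair the libraries was checked on deviations from group means across genes: r was 0.61 to 0.66 for each control and cold library of the same number, 0.43 to 0.59 for other numbers within replicates 1 and 2 or 3 and 4, and −0.61 to −0.55 across these, so much of it follows that split. The numbers, given in the titles and column names, were therefore taken to pair the libraries. Both edgeR fits were tested on simulated data.

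The members and lists were chosen with earlier results of these data known. Named genes are the 10 members, pathway genes with an adjusted p under 0.05 in either edgeR fit, the 2 most abundant genes of each list, the 5 genes most like LOC101822890, and Pax7, Myod1, Myog and Des. Other genes, among them Crabp1, Dhrs3, Stra6, Lrat and the macrophage markers, were named after their values were seen. The 8 pathway lists share up to 3 genes pairwise.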

Additional observations from a re-analysis of the deposited data

Results flagged for a closer look

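Dixon's criterion, which asks whether 1 of 4 libraries stands far from the rest of its group, was applied to 46 groups of TPM values of the members and named pathway genes. It marked 0 of them, while chance alone would mark about 2.3.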

How the results depend on the processing

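Of all genes tested, 5 were lower and 0 higher at both thresholds. The replicate block gave 101 and 5, DESeq2 68 and 0, library totals 8 and 0, no low-count filter 15 and 0, and the block without that filter 124 and 6. A filter of 10 mean counts in each group and limma with either pseudocount gave 3 and 0. Replicates 1 and 2 alone gave 175 and 8, and replicates 3 and 4 alone 27 and 1. Leaving out single libraries gave 0 to 33 lower and 0 to 1 higher, with 33 and 1 without control replicate 3.

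Members lower at both thresholds numbered 1 with edgeR and 2, with Rxrg, in DESeq2, in replicates 1 and 2 alone and with the block without the low-count filter. Leaving out single libraries gave 0 to 1, since LOC101822890 lost its call in 6 of 8 such fits, those without control replicate 2 or 4 or any cold replicate. Its log2 fold change stayed between −1.95 and −1.39 in all 19 alternatives, and that of Rxrg between −3.02 and −0.77 in the fits that held it. The count of pathway genes at an adjusted p under 0.05 rose from 0 to 1 with the replicate block (Rarres2) and was 0 with DESeq2. Fits without single libraries were not blocked and gave 0 to 0, which says nothing about that call. The exact test on TPM gave 0 to 1 members past 0.05 when single libraries were left out, the 1 being Rxra without control replicate 4. With the filter on low counts, the replicate block changed no other call among the members and pathway genes. Without that filter, members lower at both thresholds numbered 1 without the block and 2 with it.

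Log2 fold changes near 0 turned sign. Aldh1a3 was at −0.06 without control replicate 2, −0.10 without cold replicate 4 and −0.024 in replicates 1 and 2 alone, and without single libraries it ran from −0.10 to 0.28. Rdh10 was at −0.0055 without control replicate 1, −0.0027 without cold replicate 2, −0.0002 without cold replicate 4 and −0.060 in replicates 3 and 4 alone, and without single libraries it ran from −0.0055 to 0.067. Rarb was at 0.22 without control replicate 4, 0.03 and 0.02 without cold replicates 1 and 2, and 0.11 in replicates 1 and 2 alone, and without single libraries it ran from −0.24 to 0.22. The cause of these moves was not tested. Depth limits Aldh1a2 and Rxrg, which had 1 to 8 counts and 3 to 48 counts per library.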
